A study of Mus musculus with 6 samples.

Results

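Bile acids are made from cholesterol in the liver, released into the gut and taken up again by the intestinal epithelium, mainly in the ileum. Enterocytes bring them in across the apical membrane, carry them through the cytosol on a binding protein and release them to the portal blood across the basolateral membrane. Inside the cell they bind FXR, a nuclear receptor that works with RXR and turns on genes for bile acid export and feedback, among them Nr0b2 and Fgf15. The gene set described here follows that route and was taken by symbol from the table of counts: Slc10a2, Abcb11, Fabp6, Nr1h4, Nr0b2, Fgf15, Slc51a, Slc51b and Cyp27a1. All 9 had a row among the 19616 genes of the table.

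RNA was sequenced from jejunal intestinal epithelial cells (IEC), enriched with EDTA, of 3 wild-type control mice (C1, C3 and C3-3) and 3 mice lacking Hdac1 and Hdac2 in the epithelium (H1, H5 and H9), all aged 3 months, with 1 library from each mouse. Both genes encode class I histone deacetylases, and the deletion was driven by Cre under the villin promoter, which is active in the intestinal epithelium, so that other cells left in the preparation keep both genes. The study's methods give the lines a mixed C57BL/6J, 129SV and CD1 background. Each library held between 36111035 and 65902344 counts, and a floor of 3 counts amounts to 0.0405 to 0.0790 CPM, on the TMM scale used for all levels here (the floor covers counting error only). Hdac1 fell by 3.43 on the log2 scale in Hdac1/2-deleted IEC (adjusted p = 2.9e-05), whereas Hdac2 counts overlapped between the groups with a log2 fold change of -0.18 (adjusted p = 0.44), as counted over the whole gene.

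Levels are CPM, counts relative to the TMM-adjusted size of each library, and comparisons come from a quasi-likelihood fit in edgeR of 15618 tested genes, with p-values adjusted over all of them (Benjamini-Hochberg). A gene is said to have increased or decreased at a change of 2-fold or more with an adjusted p no higher than 0.05. By this rule 12.4% of all tested genes increased and 12.7% decreased, and the median log2 fold change of all tested genes was -0.0081. Of the 9 bile acid genes, 8 passed the filter on low counts. Slc10a2 and Abcb11 increased, Cyp27a1 decreased, and the median log2 fold change of the 8 was 0.89. The value was above 0 for 7 of the 8, against 49.6% of all tested genes. Without the fold limit 6 of the 8 had an adjusted p of at most 0.05, against 40.8% of all tested genes. The CPM of the 3 control and 3 deleted mice did not overlap for 6 of the 8, against 53.2% of all tested genes. Fewer cells of one type and less RNA in each cell cannot be told apart in bulk RNA.

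**Figure D1:**
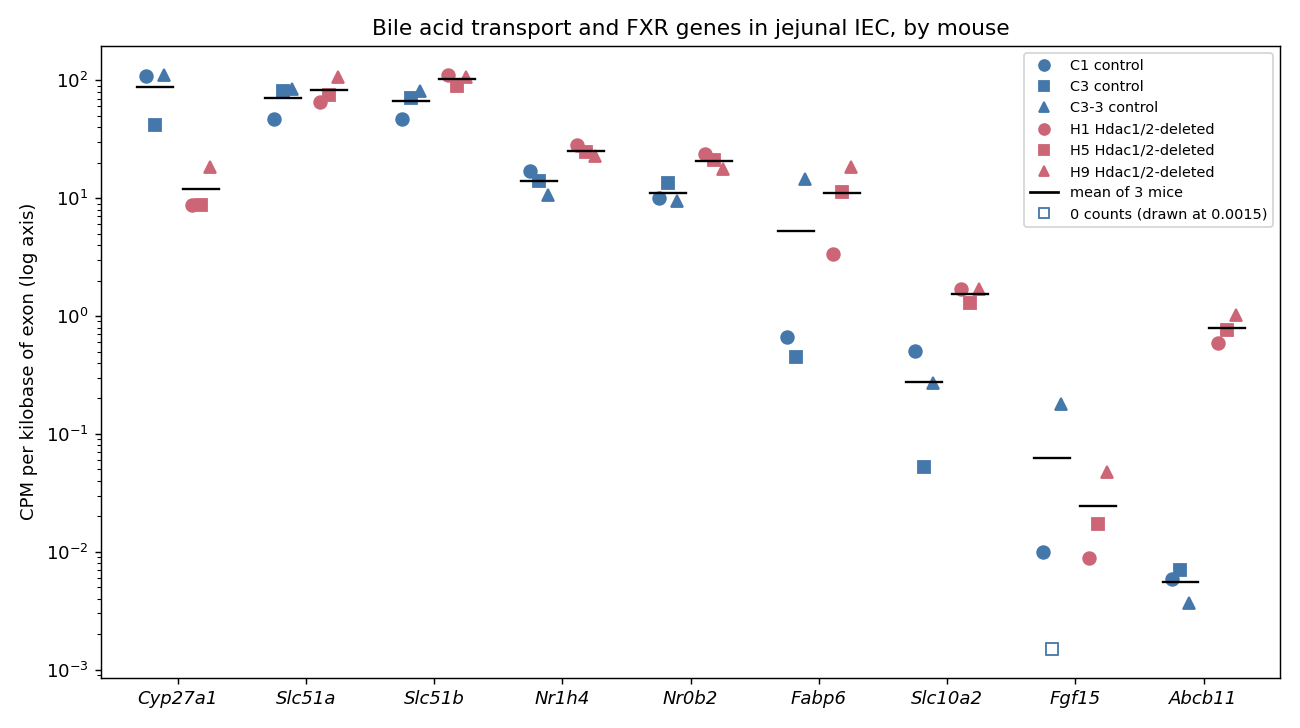
Level of the 9 bile acid genes in each mouse, in CPM per kilobase of exon on a log axis, with genes ordered by their control mean. Blue symbols are control mice, red symbols Hdac1/2-deleted mice, black bars the mean of 3 mice, and the open square is the 1 mouse with 0 counts of Fgf15; the control C3-3 lies apart from C1 and C3 for Fabp6 and Fgf15, and the groups lie farthest apart for Abcb11.

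Among the transporters that face the gut lumen, Slc10a2 encodes ASBT, the sodium-dependent carrier that takes bile acids up from the lumen and is normally strong in the ileum and weak in the jejunum. The gene lies on chromosome 8 from 5083219 to 5105351 (GRCm38, minus strand). Counts were 139 in C1, 12 in C3 and 60 in C3-3, and 518 in H1, 202 in H5 and 431 in H9. In CPM these are 2.10, 0.216 and 1.13 in control mice and 6.99, 5.32 and 7.01 in Hdac1/2-deleted mice. Each deleted mouse was above each control, and the controls were far more uneven, with a coefficient of variation of 82.0% against 15.1%. The mean rose from 1.15 ± 0.941 CPM to 6.44 ± 0.971 CPM (SD, n = 3 mice each), and the log2 fold change was 2.48 with a standard error of 0.66 and a 95% interval of 0.95 to 4.01 (adjusted p = 0.019). This is 5.57-fold. The call was sensitive to single mice. The adjusted p was 0.059 without C3-3, 0.054 without H1 and 0.054 without H9, and the increase was 9.63-fold without C1 and 3.99-fold without C3 (adjusted p = 0.0052 and 0.0036).

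Abcb11 encodes BSEP, the pump that exports bile salts into bile and is known as a hepatocyte protein and an FXR target. The gene spans 69238282 to 69342616 on the minus strand of chromosome 2 and overlaps Gm13613 and Gm13614 on the other strand. Its counts in C1, C3 and C3-3 were 2, 2 and 1, all under the floor of 3 counts. They were 224 in H1, 149 in H5 and 325 in H9, or 3.02, 3.92 and 5.28 CPM. The control libraries were therefore close to empty for this gene, and all 3 deleted mice carried it at a low but clear level of 4.08 ± 1.14 CPM. Over pooled counts, 698 against 5, the ratio was 141, with an exact 95% interval of 60.0 to 435 that covers counting error only, and the adjusted p was 1.3e-05. The adjusted p stayed between 4.6e-05 and 0.00017 when each mouse was left out in turn. Alb, which hepatocytes express more than almost any other gene, was at 0.810 to 0.997 CPM in control mice and 0.216 to 0.316 CPM in deleted mice. The liver enzyme Cyp2e1 had 33 to 75 counts in each control and 0 in each deleted mouse. Both of these hepatocyte genes decreased, but over the whole list of 9 tested hepatocyte markers 3 increased and 2 decreased, with Tat the highest at a log2 fold change of 6.02. The list summed to 498 to 709 CPM in control and 589 to 877 CPM in deleted mice, but 82.4% to 98.4% of each sum was Cps1, a urea cycle gene that enterocytes also express. Without Cps1 the sums were 11.2 to 15.3 CPM in control and 44.9 to 104 CPM in deleted mice. They were separate and higher in deleted mice, like Abcb11. Most of what remained in H1, H5 and H9 was Ttr (12.8, 13.3 and 52.7 CPM) and Ass1 (21.7, 36.2 and 38.6 CPM). Of the 9 tested markers 6 had a log2 fold change above 0, and the list median was 0.0073. The part of these markers in the Abcb11 result was not tested.

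The start regions of both transporter genes are shown because they gave the 2 increases of the set. Each sequence is the RefSeq window from 250 bases before to 50 bases after the annotated start (GRCm38.p6), written 5′ to 3′ on the strand of the gene. Capitals mark AGGTCA and the variants GGGTCA and AGTTCA on either strand, half-sites of the kind that FXR and related nuclear receptors bind in pairs. The Slc10a2 window is chr8:5105238-5105537, minus strand, with 1 half-site beginning 190 bases before the start. The Abcb11 window is chr2:69342567-69342866, minus strand, with half-sites beginning 87 and 56 bases before the start and another after it.
Slc10a2: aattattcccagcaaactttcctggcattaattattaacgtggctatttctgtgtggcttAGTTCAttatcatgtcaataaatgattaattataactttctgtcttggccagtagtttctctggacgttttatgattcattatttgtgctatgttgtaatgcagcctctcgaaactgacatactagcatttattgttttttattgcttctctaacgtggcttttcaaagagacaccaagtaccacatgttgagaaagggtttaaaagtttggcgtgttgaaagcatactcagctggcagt
Abcb11: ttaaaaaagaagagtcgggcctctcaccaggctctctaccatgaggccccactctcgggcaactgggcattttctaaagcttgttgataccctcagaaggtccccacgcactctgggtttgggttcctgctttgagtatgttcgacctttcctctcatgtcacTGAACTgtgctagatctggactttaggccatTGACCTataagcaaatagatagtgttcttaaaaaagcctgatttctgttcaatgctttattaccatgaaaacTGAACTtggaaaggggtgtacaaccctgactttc

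Windows were matched for 8 of the 9 genes, all but Fgf15. The Nr1h4 window, chr10:89506609-89506908, lies within the span of its gene rather than at the outer end. At least 1 half-site was found in 7 of the 8, the exception being Fabp6, against 37.5% of 32851 mouse promoter windows of the same length. The paired arrangement that FXR is best known to bind is an inverted repeat of half-sites spaced by 1 base. An exact match to it was in 0 of the 8 windows and in 0.0213% of all windows. At so low a share, 0 of 8 tells little about these genes. Only exact matches were counted, for pairs and for single half-sites, so sites with a mismatch were missed. In the Abcb11 window, aggcca, a half-site with 1 mismatch, stands 1 base before TGACCT. These matches describe letters in a 300-base window. Slc51b had AGGTCA and GGGTCA on the same strand beginning 203 and 187 bases before the start, 10 bases apart, and Slc51a had an AGGTCA site on the other strand 58 bases before it.

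Fabp6 encodes the ileal bile acid binding protein of the cytosol, another ileal gene and a known FXR target (chromosome 11 from 43596049 to 43601540, minus strand). Control counts were 21 in C1, 12 in C3 and 373 in C3-3. Counts in Hdac1/2-deleted mice were 120 in H1, 207 in H5 and 537 in H9. The groups overlapped through a single control: C3-3, at 7.02 CPM, was above H1 and H5 at 1.62 and 5.45 CPM and below H9 at 8.73 CPM, whereas C1 and C3 were at 0.317 and 0.216 CPM. The log2 fold change over all 6 mice was 1.07 with a standard error of 1.42 and a 95% interval of -2.50 to 4.64 (adjusted p = 0.59). Without C3-3 it was 4.29, a 19.6-fold difference (adjusted p = 0.0050), and leaving out any 1 of the other mice gave 0.49 to 1.51. A limma-voom fit over all 6 mice gave a 5.27-fold difference (adjusted p = 0.13), against 2.10-fold in edgeR. Fabp6 was called in the fit without C3-3 and in none of the other fits tried, and the size of its difference also moved with the method.

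C3-3 was also the control that stood apart for Fgf15, which encodes the hormone that ileal enterocytes send to the liver to hold back bile acid synthesis (chromosome 7 from 144896531 to 144900953). Fgf15 had 29 counts in C3-3, 2 in C1 and 0 in C3, and 2, 2 and 9 counts in H1, H5 and H9. Only C3-3 and H9, at 0.546 and 0.146 CPM, were above the floor of 3 counts. The low-count filter removed Fgf15, and a fit without that filter gave a log2 fold change of -1.28 with a standard error of 1.36 (adjusted p = 0.52). H9, the higher of the deleted mice for Fgf15, was also the highest deleted mouse for Fabp6. For Slc10a2, in contrast, C3-3 at 1.13 CPM lay between C1 and C3. The summed level of the distal intestinal markers was 4618 CPM in C3-3, between 4434 and 5095 CPM in the other 2 controls. A single gene, Lypd8, made up 49.8% to 80.5% of each distal sum over the 6 mice. Gata4, a proximal transcription factor, was at 174 CPM in C3-3 and at 166 and 206 CPM in C1 and C3. The part of gut position in these levels was not tested.

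Nr1h4 encodes FXR itself (chromosome 10 from 89454234 to 89533585, minus strand). Its CPM was 39.5, 31.9 and 24.7 in C1, C3 and C3-3 and 65.4, 56.6 and 52.3 in H1, H5 and H9. The groups did not overlap. The mean went from 32.1 ± 7.38 to 58.1 ± 6.66 CPM, with a log2 fold change of 0.86, a standard error of 0.19 and a 95% interval of 0.43 to 1.28 (adjusted p = 0.0060). The difference passed the p limit but was 1.81-fold, below the fold limit. It reached 2.06-fold without C1.

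Nr0b2 encodes SHP, a nuclear receptor without a DNA-binding domain that represses other receptors and is among the best known genes turned on by FXR (chromosome 4 from 133553376 to 133556536, plus strand). Its CPM was 11.4, 15.2 and 10.7 in C1, C3 and C3-3 and 26.8, 24.1 and 19.9 in H1, H5 and H9, again without overlap. The mean went from 12.4 ± 2.43 to 23.6 ± 3.47 CPM, with a log2 fold change of 0.92, a standard error of 0.19 and a 95% interval of 0.48 to 1.36 (adjusted p = 0.0051). At 1.90-fold it too missed the fold limit, which it reached without C3 (2.14-fold) and without H9 (2.05-fold). The receptor and this target thus differed by similar amounts and with similar spread. The Nr0b2 start region is shown as that of the best known FXR target in the set. Its window is chr4:133553126-133553425, plus strand, with 1 half-site, GGGTCA, beginning 143 bases before the start.
Nr0b2: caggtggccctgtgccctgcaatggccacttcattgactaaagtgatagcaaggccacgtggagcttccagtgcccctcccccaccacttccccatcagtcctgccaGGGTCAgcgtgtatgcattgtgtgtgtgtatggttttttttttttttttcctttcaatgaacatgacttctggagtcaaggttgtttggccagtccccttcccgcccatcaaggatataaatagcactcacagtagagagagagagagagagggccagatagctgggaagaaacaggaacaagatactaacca

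Slc51a and Slc51b encode the α and β subunits of OST, the basolateral exporter that releases bile acids to the portal blood and needs both subunits. Slc51a (chromosome 16 from 32474504 to 32487879, minus strand, overlapping Pcyt1a on the other strand) was at 150, 261 and 272 CPM in C1, C3 and C3-3 and at 208, 239 and 343 CPM in H1, H5 and H9. These ranges overlapped broadly. The means were 228 ± 67.3 and 263 ± 70.7 CPM, with a log2 fold change of 0.21, a standard error of 0.26 and a 95% interval of -0.39 to 0.81 (adjusted p = 0.56), and the value was -0.011 without C1 and -0.022 without H9. Slc51b (chromosome 9 from 65412714 to 65422955, minus strand, overlapping Rasl12 on the other strand) was at 33.1, 49.9 and 58.1 CPM in control mice and at 79.2, 63.1 and 75.6 CPM in deleted mice. All 3 deleted mice were above all 3 controls. The means were 47.0 ± 12.8 and 72.6 ± 8.48 CPM, a log2 fold change of 0.63 with a standard error of 0.21 and a 95% interval of 0.16 to 1.10 (adjusted p = 0.038), below the fold limit. Its adjusted p lay between 0.020 and 0.11 with 1 mouse left out, and was above 0.05 without C1, C3, H1 or H9.

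Within each mouse the subunits can be set against each other per kilobase of exon. The ratio of Slc51a to Slc51b was 1.01, 1.16 and 1.04 in C1, C3 and C3-3 and 0.581, 0.841 and 1.01 in H1, H5 and H9. By this measure control mice held RNA of the subunits at nearly equal levels, and H1 and H5 held less Slc51a than Slc51b. How near the ratio is to 1 depends on the exon lengths used, 3198 bases for Slc51a and 709 for Slc51b. The order of the mice does not depend on them. H9 was at the edge of the controls. The mean ratio was 1.07 ± 0.082 in control and 0.809 ± 0.214 in deleted mice (exact two-sided permutation p = 0.10, the smallest that 3 mice against 3 allow).

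Cyp27a1 encodes the mitochondrial sterol 27-hydroxylase, which starts the alternative route of bile acid synthesis and makes an oxysterol from cholesterol in many tissues (chromosome 1 from 74713574 to 74737892, plus strand). Counts were 15589 in C1, 5067 in C3 and 12834 in C3-3, and 1405 in H1, 724 in H5 and 2440 in H9. This corresponds to 235, 91.2 and 242 CPM in control mice and 19.0, 19.1 and 39.7 CPM in Hdac1/2-deleted mice. The highest deleted mouse was below the lowest control. The mean fell from 189 ± 85.0 to 25.9 ± 11.9 CPM, and the log2 fold change was -2.87 with a standard error of 0.48 and a 95% interval of -4.01 to -1.73 (adjusted p = 0.0035). With 1 mouse left out the log2 fold change was between -3.31 and -2.65 and the decrease was called each time. The start region of the gene is shown because it gave the only decrease of the set. Its window is chr1:74713285-74713584, plus strand, with 1 half-site, AGTTCA, beginning 158 bases before the start.
Cyp27a1: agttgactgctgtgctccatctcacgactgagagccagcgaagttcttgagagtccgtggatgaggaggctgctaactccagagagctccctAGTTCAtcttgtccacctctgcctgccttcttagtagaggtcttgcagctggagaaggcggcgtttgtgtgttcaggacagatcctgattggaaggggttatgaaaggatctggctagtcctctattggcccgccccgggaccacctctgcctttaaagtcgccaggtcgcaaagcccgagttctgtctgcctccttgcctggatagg

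C3 had the lowest control level of Slc10a2, Cyp27a1, Fabp6 and Fgf15. It had the highest control level of Nr0b2 and, at 2 counts, of Abcb11. It was also the only mouse with RNA from the Y chromosome, with 3082 counts summed over Ddx3y, Eif2s3y, Kdm5d and Uty against 1 to 13 counts in the other 5 mice. Without C3 the calls of Slc10a2 and Cyp27a1 remained, with log2 fold changes of 2.00 and -3.20, and Nr0b2 gained a call at 1.10.

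**Figure D2:**
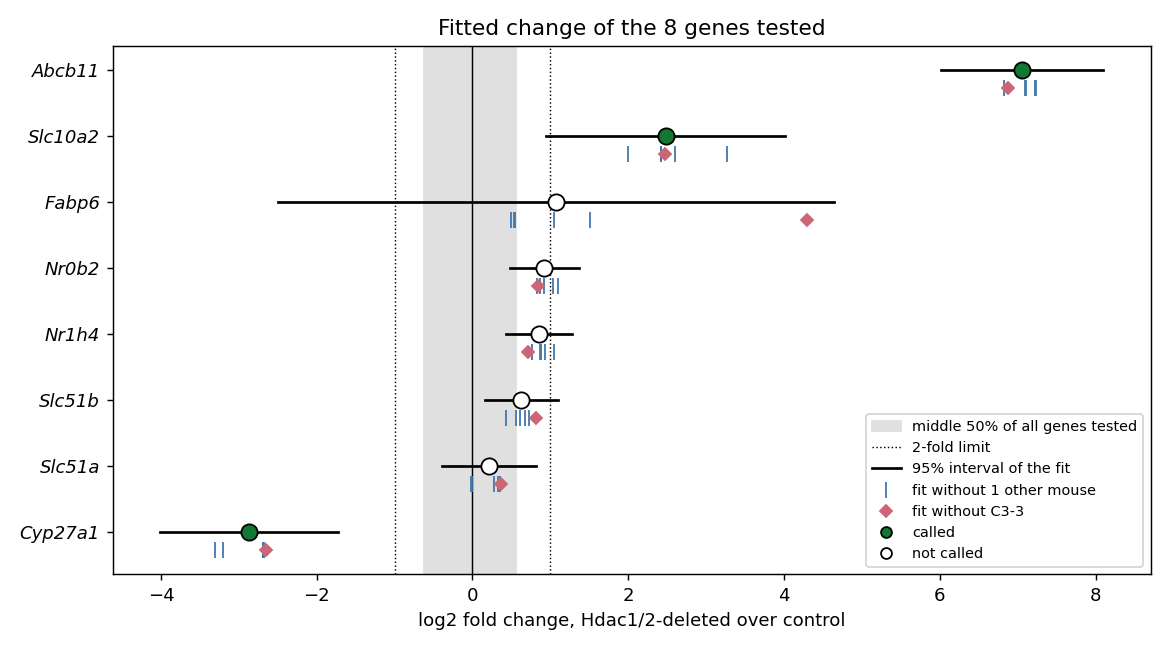
Log2 fold change (Hdac1/2-deleted over control) of the 8 bile acid genes tested by edgeR, with circles for the fit over all 6 mice, filled where the gene was called, and black lines for its 95% interval. Small marks below each line are fits with 1 mouse left out; the fit without C3-3 moves Fabp6 from 1.07 to 4.29, and the value drawn for Abcb11 depends on a prior count because control libraries held 1 or 2 counts.

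Compared per kilobase of exon, the largest change of order was that of Cyp27a1. In control IEC the highest level was that of Cyp27a1 at 87.1 ± 39.1 CPM per kb, followed by Slc51a at 71.2 (47.0 to 84.9) and Slc51b at 66.3 ± 18.0. The ranges of these 3 genes overlapped. Nr1h4 at 13.9 ± 3.21 and Nr0b2 at 11.0 ± 2.15 CPM per kb came next and overlapped each other, and the ranges from Nr0b2 through Fabp6, Slc10a2 and Fgf15 to Abcb11 each overlapped with the next. In Hdac1/2-deleted IEC Slc51b and Slc51a led at 102 ± 12.0 and 82.3 ± 22.1 CPM per kb with overlapping ranges. Cyp27a1, at 11.9 ± 5.49 CPM per kb, was then below Slc51a and Nr1h4 and overlapped Nr0b2 above it and Fabp6 below it. Slc10a2 at 1.55 ± 0.234, Abcb11 at 0.792 ± 0.221 and Fgf15 at 0.025 ± 0.021 CPM per kb did not overlap their neighbours. Abcb11 thus stood above Fgf15 in deleted IEC, and both were at the bottom in controls.

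A further 85 genes of bile acid metabolism and FXR signalling were followed in 7 lists, and 67 of them were tested. Of these, 11 increased (16.4%) and 15 decreased (22.4%), beside 12.4% and 12.7% of all tested genes, and their median log2 fold change was -0.049 beside -0.0081. Of the 12 enzymes of synthesis and conjugation, 2 increased and 4 decreased, with a median of -0.81. Cyp39a1, an oxysterol hydroxylase, was at 3.22 to 6.36 CPM in control and 0.065 to 0.237 CPM in deleted mice (log2 fold change -5.14 with a standard error of 0.51, adjusted p = 0.00011). Of 4 genes for peroxisomal enzymes of side chain shortening, Scp2 and Hsd17b4 fell, with log2 fold changes of -1.78 and -1.41. The other 2 were not called, with log2 fold changes of 0.34 for Amacr (adjusted p = 0.068) and -2.35 for Acox2 (adjusted p = 0.14). Baat, which joins bile acids to taurine or glycine, fell from 2.43 ± 1.03 to 0.951 ± 0.279 CPM (log2 fold change -1.34, adjusted p = 0.027), a call lost without C3-3, H1, H5 or H9. Cyp2c70, which makes muricholic acids in mice, rose from 1.87 ± 0.669 to 10.9 ± 2.27 CPM (log2 fold change 2.55, adjusted p = 0.00034), and Akr1d1, a steroid reductase, rose by 2.23 from a level of only 6 to 11 counts in each control.

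FXR's partner Rxra did not pass the test, with a log2 fold change of -0.16 and a 95% interval of -0.52 to 0.20. Among the 15 partners and coregulators 1 increased and 2 decreased, with a median of 0.13. Prmt1, an arginine methyltransferase, rose 2.82-fold, and the deacetylase Sirt1 fell by 1.15 on the log2 scale. The corepressor gene Ncor1 fell by 1.01, at the fold limit, and lost its call without C1, C3 or H1. Nr5a2 and Hnf4a, nuclear receptors that share targets with FXR, had log2 fold changes of 0.37 and -0.30 (adjusted p = 0.21 and 0.13).

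Among 14 other genes reported as FXR targets, 4 increased and 2 decreased (Pdk4 and Baat), with a median of 0.31. Sdc1, a heparan sulfate proteoglycan, rose from 84.9 ± 9.04 to 294 ± 31.2 CPM (log2 fold change 1.79, adjusted p = 4.9e-05). The nitric oxide synthase Nos2 rose by 2.81. Kininogen 1, the product of Kng1, is mainly a liver protein; its gene had 0 counts in each control and 38, 22 and 77 counts in H1, H5 and H9, at least 15.0-fold higher when each control is set at 3 counts. Fetub, another gene known from liver, had 1, 2 and 0 counts in control mice and 17, 22 and 18 in deleted mice, a ratio of 19.1 over pooled counts with an exact 95% interval of 6.23 to 95.6 (counting error only). Pdk4, a kinase that holds back pyruvate oxidation, fell from 220 ± 129 to 3.71 ± 0.865 CPM (log2 fold change -5.89, adjusted p = 0.00016). Genes of this list thus moved both ways.

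Of 11 factors reported to bind the Slc10a2 promoter, 3 decreased and the other 8 were not called, with a median of -0.29. The decreases were Jun at -1.55, Vdr, the vitamin D receptor, at -1.40 and Nr3c1, the glucocorticoid receptor, at -1.17. Gata4, which is known to restrain Slc10a2 in the proximal small intestine, was at 166 to 206 CPM in control and 161 to 182 CPM in deleted mice (log2 fold change -0.08, adjusted p = 0.69). Vdr also responds to lithocholic acid. Of 5 tested receptors for bile acids other than FXR, Vdr, Nr1i3 (-1.32) and the muscarinic receptor gene Chrm3 (-2.17) decreased and S1pr2, a receptor for conjugated bile acids, rose by 1.83, with a list median of -1.32. Of 9 other transporters, 1 increased and 1 decreased, with a median of 0.071: the exporter gene Abcc4 rose by 1.43 and the prostaglandin carrier gene Slco2a1 fell by 1.84.

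The last list holds the receptors for FGF15 and genes that affect its output. Fgfr4, the receptor for FGF15 in the liver, was at 4.30, 3.02 and 4.10 CPM in C1, C3 and C3-3 and at 40.0, 44.4 and 43.8 CPM in H1, H5 and H9. These values were even within each group. The log2 fold change was 3.49 with a standard error of 0.19, an 11.2-fold increase (adjusted p = 5.3e-06). Klb, the co-receptor that FGF15 needs, was at 7 to 22 counts in every mouse (log2 fold change -0.04, adjusted p = 0.95). Malrd1, whose product raises FGF15 output from enterocytes, fell from 220 ± 11.0 to 55.4 ± 16.1 CPM (log2 fold change -1.99, adjusted p = 0.00018). Fgfr3 rose by 2.26 and Fgfr2 fell by 1.51, so that 2 of 6 increased and 2 decreased, with a median of 0.31.

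**Figure D3:**
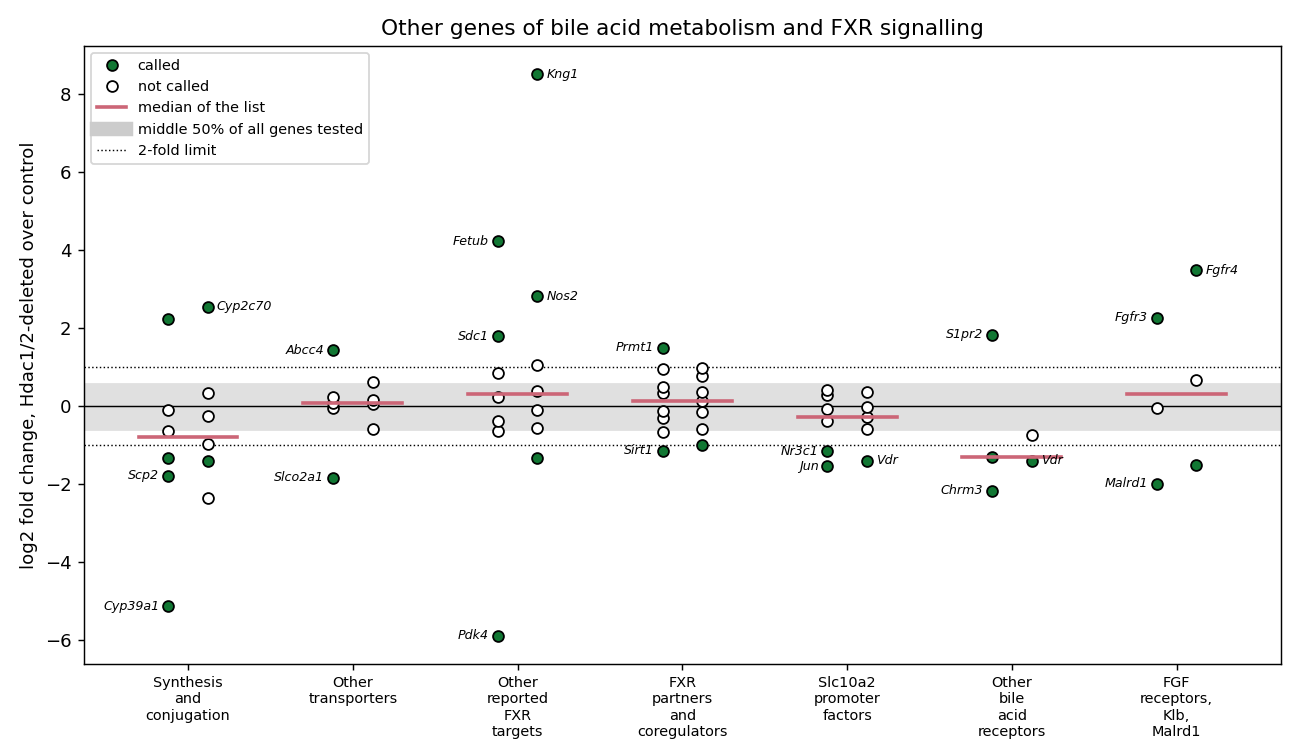
Log2 fold change (Hdac1/2-deleted over control) of the tested genes of 7 lists of bile acid and FXR genes, with 1 circle for each gene, filled where it was called, and red bars at list medians. Dotted lines mark the 2-fold limit and the grey band the middle 50% of all tested genes; list medians run from -1.32 to 0.31, and the value drawn for Kng1 depends on a prior count because its control libraries held 0 counts.

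Marker genes were summed in each library to set beside these results. IEC markers summed to 21312 to 24404 CPM in control and 16931 to 19386 CPM in deleted mice, and 2 of 12 increased and 2 decreased. Proximal markers summed to 45521 to 62944 and 10605 to 17281 CPM, with 1 of 10 increased and 2 decreased, Apoa4 and Lct, which made up most of the sum in control mice. Cybrd1 had the highest log2 fold change of that list, 3.12. The list median was 0.043, and 5 of the 10 had a log2 fold change above 0. Without Apoa4 the proximal sums were 13349 to 18293 CPM in control and 7030 to 9491 CPM in deleted mice. Distal markers summed to 4434 to 5095 and 4839 to 5563 CPM, with 3 of 8 decreased, among them Cubn at a log2 fold change of -3.84, and 5 not called, while Car1 had 0 to 3 counts in controls and 16, 1261 and 72 in H1, H5 and H9. Lypd8 made up 49.8% to 80.5% of each distal sum, and without it the sums were 1625 to 2557 CPM in control and 945 to 1262 CPM in deleted mice. The whole distal sums of the groups overlapped, and those without Lypd8 were lower in deleted mice. The proximal sums, with or without Apoa4, were separate and lower in deleted mice, like the levels of Cyp27a1. The single genes of the proximal list went both ways. T cell markers (2 of 10 decreased) summed to 135 to 503 and 70.8 to 160 CPM, B cell markers (1 of 4 increased) to 42.0 to 612 and 128 to 344 CPM, and macrophage markers (3 of 7 increased) to 13.3 to 17.1 and 23.8 to 45.4 CPM. Stromal markers (3 of 9 decreased) summed to 5.06 to 61.2 and 4.32 to 9.69 CPM, and crypt and proliferation markers (2 of 8 decreased) to 462 to 654 and 240 to 437 CPM, or 197 to 336 and 186 to 316 CPM without Olfm4, their most abundant gene. The part of these markers in the bile acid results was not tested.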

How the data were processed

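The authors enriched poly(A) RNA, made stranded libraries, sequenced them and aligned reads with STAR, to GRCm38 per the study's methods, while the submitters' processing notes list mm9 and STAR 2.4.0f1. The deposited table gives raw counts for 19616 genes, with no gene under 10 counts over the 6 libraries. The counting program, its strand setting and the annotation are not given in the sources used here, so reads of genes overlapping on opposite strands cannot be told apart. The 6 columns of scaled counts and the authors' own fold changes, mean log2 CPM and adjusted p-values were not used. Counts were analysed with edgeR 4.0.16 in R 4.3.3: filterByExpr (minimum count of 10), TMM (factors 0.892 to 1.14), and a robust quasi-likelihood fit of 3 control against 3 Hdac1/2-deleted mice without covariates, prior count 0.125. P-values were adjusted over 15618 genes. The standard error is the log2 fold change divided by the root of F. DESeq2 1.42.0, limma 3.58.1 voom, other scalings, filters and fold rules and leaving out each mouse were alternatives. Positions and exon lengths (union of exons) are from GENCODE M21 and promoter windows from RefSeq, both GRCm38. Figures were drawn with matplotlib 3.10.9 and permutation tests and intervals made with scipy 1.17.1. The fit was tested on simulated data. Its first pass rule, on the share of planted changes that were called, failed. After that failure was seen, the rule was replaced by checks of direction, size of error and share of false calls. Samples were grouped by their labels, each a separate mouse, and no sequencing batch is labelled.

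The 9 genes and the gene lists were chosen with earlier results of these data known, and the list counts are not independent support for any direction. Named are all 9 genes, Hdac1 and Hdac2, every pathway list gene that was called, and Rxra, Nr5a2, Hnf4a and Gata4 whether called or not. Of a marker list only the genes with the lowest and highest log2 fold change may be named, and for each called bile acid gene the 3 genes of most similar profile are given. Alb, Ttr, Ass1, Lct, Klb, Amacr, Acox2, the abundant markers Cps1 and Lypd8, and the 4 Y-linked genes fall outside that rule and were chosen after their values were seen. Of 177 listed genes 162 have a row in the table.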

Additional observations from a re-analysis of the deposited data

How the results depend on the processing

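The number of the 9 bile acid genes called, 3, was 5 when counts were scaled by library totals alone and 6 when the fold limit was dropped. It was 4 without C1 or C3, and 2 without H1 or under a filter of at least 10 counts in every sample. Without C3-3 or H9 it stayed at 3, but Slc10a2 was lost and Fabp6 or Nr0b2, respectively, was gained. Scaling by library totals moved the median log2 fold change of all tested genes from -0.0081 to 0.18 and the share of all calls that were increases from 49.4% to 61.6% (2463 increased and 1538 decreased), and under it Nr1h4 and Nr0b2 reached 1.04 and 1.13. The log2 fold change of Slc51a ran from -0.022 to 0.36 when each mouse was left out, with -0.011 without C1 and -0.022 without H9. Over the 8 tested genes, 119 values were taken under alternatives. Of these, 105 kept their direction and whether the gene was called, and 3 (all Slc10a2) lost the call. A further 9 gained one (Fabp6 without C3-3, Nr1h4, Nr0b2 and Slc51b) and 2 (Slc51a) changed sign. Not all were separate fits. Dropping the fold limit reused the main fit, and it alone gave Slc51b its call. The test against 1.5-fold kept the same log2 fold changes, and a prior count of 2 kept the same adjusted p. An unchanged call did not mean an unchanged p: with the same direction, Slc51b went from an adjusted p of 0.038 to 0.059 to 0.11 without C1, C3, H1 or H9, and in a test against 1.5-fold Slc51b, Nr1h4 and Nr0b2 were at 0.45, 0.10 and 0.070. Fabp6, not called, was 2.10-fold over all mice, 5.27-fold with limma-voom and 1.46-, 1.44- and 1.40-fold without C1, C3 or H9. The count of genes called among the 67 on the pathway lists, 26, ran from 21 to 35. Scaling by library totals took the 2-fold call from Sirt1, Nr3c1, Baat and Ncor1, and Ncor1 also lost it with RLE size factors, DESeq2 and the filter of at least 10 counts in every sample. Abcb11 was removed by a filter of at least 10 counts in every sample, which left no value. No paired analysis was possible because the labels give no pairing or litter of the control and deleted mice. With 3 mice in each group, depth limits Abcb11 in control mice and Fgf15, and the spread between mice limits Fabp6 and Slc51a.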

Other observations

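Genes whose profile over the 6 mice was most like that of a called bile acid gene were found among all tested genes by the root mean square difference of log2 CPM, each gene centred on its own mean. Closest to Slc10a2 were Hotairm1, a noncoding RNA of the HoxA cluster (difference 0.407), Hpdl (0.489) and Rhbdl3 (0.519), which rose by 3.07, 2.31 and 2.12 on the log2 scale. Closest to Abcb11 were Glis2, a zinc finger transcription factor gene that went from 0.617 to 47.8 CPM (0.160), Car5a, a mitochondrial carbonic anhydrase gene with 0 counts in each control and 104, 66 and 153 in H1, H5 and H9 (0.175), and Cercam (0.199). Closest to Cyp27a1 were Tfpi, which encodes an inhibitor of coagulation (0.153), Ocm (0.163) and the peptide transporter gene Slc15a1 (0.229), which went from 742 to 115 CPM. Each match rests on 6 libraries, in which the difference between the groups dominates, so a similar profile mostly reflects a similar change between the groups.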
